A study of Mus musculus with 12 samples.

Results

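The mouse mitochondrial genome carries 37 genes, recognised here by gene symbols that begin with mt-. All 37 were listed in each of the 3 expression tables, among 59546 gene names found in any of them. By symbol they fell into 13 protein-coding genes, 2 rRNA genes and 22 tRNA genes. RNA was sequenced from 12 libraries on the Ion Torrent Proton platform, 6 of osteoclasts and 6 of periosteal stem cells (PSCs), with 3 control and 3 Prmt5-deficient (cKO) libraries for each cell type. The mice were C57BL/6. Osteoclasts came from mice of 11 weeks and were grown from bone marrow with M-CSF and then 72 h of RANKL, the cytokine that drives osteoclast formation. PSCs were sorted by FACS from mice of 3 to 6 weeks. The cKO mice were Prmt5flox/Δ Ctsk-Cre, a genotype with one floxed and one deleted allele of Prmt5 and Cre driven from the cathepsin K gene, which is active in osteoclasts and in PSCs. The PSC mice of both groups also carried the CAG-CAT-EGFP reporter, and the PSC controls were Prmt5flox/+ Ctsk-Cre, so they had Cre too. The PSC groups were of 3 mice each. For the osteoclast libraries the control genotype and the number of mice were not given in the sources used here, so their p-values measure the spread between libraries, part of which may be technical.

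Mitochondria keep a small circular genome whose products serve oxidative phosphorylation. Its protein-coding genes encode core subunits of respiratory complex I (the mt-Nd genes), complex III (mt-Cytb), complex IV (mt-Co1, mt-Co2 and mt-Co3) and ATP synthase, or complex V (mt-Atp6 and mt-Atp8). The rRNAs mt-Rnr1 and mt-Rnr2 form the small and the large mitochondrial ribosomal subunit, and the tRNAs serve translation inside the organelle. Both strands are copied into long precursors, from which the tRNAs are cut out to release the other RNAs. A polymerase, transcription factors, nucleases and RNA-binding proteins made from nuclear genes carry out this work. Osteoclasts are known as cells rich in mitochondria. PRMT5 itself is a nuclear-encoded arginine methyltransferase.

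The libraries were checked against their labels first. Prmt5 had 58.5, 71.7 and 67.6 CPM (counts scaled to library size by TMM) in osteoclast controls, against 28.8, 37.8 and 35.3 CPM in cKO osteoclasts, a log2 difference of -1.01 (SE 0.160, adjusted p = 0.0349 from edgeR). In PSCs Prmt5 had 6.29 and 8.31 RPKM in the control pair, against 8.40, 6.31 and 8.08 RPKM in the cKO libraries, so its level did not separate the PSC groups (log2 difference 0.05, SE 0.166, adjusted p = 0.868 from limma). The paper reports lower Prmt5 mRNA and protein in cKO PSCs, shown apart from its RNA-seq, so the measures may differ from the RPKM used here. From its RNA-seq it reports lower Postn, the gene of periostin. Postn did separate the groups here, with 488 and 521 RPKM in the control pair against 188, 240 and 196 RPKM in the cKO libraries. Control 3, described below, had 737 RPKM. The published Postn result comes from this series, so it is no independent check. The PSC libraries are called by their labels throughout. The osteoclast marker Dcstamp had at least 346 CPM in every osteoclast library and at most 0.3004 RPKM in every PSC library. The collagen gene Col1a1 had 3104 to 12918 RPKM in the PSC libraries and Prrx1, a transcription factor of skeletal progenitors, had 8.75 to 13.8 RPKM. Other genes of the PSC marker list were not particular to PSCs. Itgav, the gene of the sort marker CD51, had 11.5 to 15.9 RPKM in PSCs and 1104 to 1213 CPM in osteoclasts. Cd200, another sort marker, had 40.4 to 69.9 RPKM and 58.1 to 91.1 CPM. These units differ between the cell types. PSC control 3 came in a table of its own and stood apart. It had 6958265 mapped reads against an estimated 9932976 to 13928745 in the others. In it 6 erythroid genes summed to 1257 RPKM, against 47.3 and 33.1 in controls 1 and 2 and 513, 862 and 183 in the cKO libraries. Conversely, 5 neutrophil genes summed to 393 RPKM in it, against 1915 and 1122 in controls 1 and 2 and 2020, 1881 and 1193 in the cKO libraries. For 5 macrophage genes the sum was 30.3 RPKM, against 268 and 175 and against 319, 234 and 224. The part of these blood cell transcripts in the results below was not tested. Tests in PSCs took the 5 libraries that share a table (controls 1 and 2, cKO 1 to 3), and control 3 is given beside them.

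Together the 37 genes took a larger share of the counts in osteoclasts than of the mapped reads in PSCs. The share in osteoclast controls 1 to 3 was 2.66% (95% Wilson interval 2.64 to 2.68), 3.24% (3.22 to 3.26) and 2.60% (2.58 to 2.61) of 2513440, 2606215 and 2805824 counts. In osteoclast cKO libraries 1 to 3 it was 2.63% (2.61 to 2.64), 2.76% (2.73 to 2.79) and 3.83% (3.79 to 3.86) of 3608940, 1234919 and 984885 counts. The intervals cover counting error only, since reads are not independent molecules. The groups overlapped, with means of 2.83% ± 0.355 (SD, n = 3) and 3.07% ± 0.656 (SD, n = 3), and cKO 3, the shallowest library, was the highest. Without cKO 3 the difference of 0.241 percentage points turned to -0.136.

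In PSCs the share was 0.513% (0.509 to 0.517) and 0.638% (0.634 to 0.643) in controls 1 and 2. It was 0.625% (0.621 to 0.629), 0.498% (0.494 to 0.502) and 0.499% (0.495 to 0.503) in cKO libraries 1 to 3. These values overlapped too, with means of 0.576% ± 0.0888 (SD, n = 2) and 0.541% ± 0.0732 (SD, n = 3). Control 3 lay above all 5, at 0.949% (0.942 to 0.956). With control 3 among the controls the difference moved from -0.0350 to -0.159 percentage points. The osteoclast share is of counted reads and the PSC share of mapped reads, in tables made separately, so the cell types are set side by side and were not tested against each other. As percent of exon reads, the nearest match to counted reads, the 5 PSC libraries of one table had 0.580% to 0.737% and control 3 had 1.11%. More mitochondrial RNA per cell and less RNA from other genes cannot be told apart in bulk samples.

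The classes were very unevenly represented. In PSCs, 12.2% to 16.3% of the reads of the 37 genes came from the rRNA genes in the 5 libraries of one table, and 2 to 8 reads per library came from tRNA genes. In osteoclasts, every count came from the 13 protein-coding genes, and the rRNA and tRNA genes were listed at 0 in all 6 libraries. A limit of 3 counts there equals 0.831 to 3.05 CPM, for counting error only. The zeros were not particular to mitochondria. The osteoclast table listed 5736 genes of the annotated classes Mt_rRNA, Mt_tRNA, rRNA, miRNA, snRNA, snoRNA, scaRNA and misc_RNA, and their counts summed to 0. Nothing about mitochondrial rRNA in osteoclasts can be read from this table.

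Of the rRNA genes, the one of the large subunit was the higher in every PSC library. mt-Rnr1 (MT:70-1024, plus strand) had 87.0 and 110.2 RPKM in the control pair, against 97.3, 71.7 and 73.0 RPKM in the cKO libraries. mt-Rnr2 (MT:1094-2675, plus strand) had 449 and 591 RPKM in the control pair, against 486, 365 and 340.0 RPKM in the cKO libraries. For both genes the highest value was in control 2 and the groups overlapped. The level of mt-Rnr2 was 4.66 to 5.37 times that of mt-Rnr1 in these 5 libraries. Control 3 was above all of them, with 234 RPKM of mt-Rnr1 and 951 RPKM of mt-Rnr2, a ratio of 4.06. Neither gene passed the test, at a log2 difference of -0.29 (SE 0.171, adjusted p = 0.311 from limma) for mt-Rnr1 and -0.39 (SE 0.195, adjusted p = 0.237 from limma) for mt-Rnr2.

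Taken as a percent of the reads of all 37 genes, the rRNA class did separate the PSC groups. Controls 1 and 2 had 15.5% and 16.3%, while cKO 1 to 3 had 13.8%, 12.97% and 12.2%. Every cKO library lay below both controls, with means of 15.9% ± 0.582 (SD, n = 2) and 12.98% ± 0.799 (SD, n = 3). Control 3 had 18.2%, or 15.3% once the reads of the nuclear copies described below were added. The sum of the erythroid genes given above also separated these 5 libraries, and its part in this ratio was not tested. The ratio was chosen after its values were seen and carries no test. It is a share of reads, and how well the libraries captured rRNA was not tested. Among single genes in PSCs, 10.2% of all 11045 tested had every cKO library below every control.

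Reads from tRNA genes were too few to compare. Over the 5 libraries sharing a table, 21 reads fell in 6 of the 22 tRNA genes, and 8 genes had a read in any of the 6 libraries. mt-Te, the tRNA for glutamate, had 1 and 0 reads in controls 1 and 2, and 2, 1 and 4 reads in cKO 1 to 3. It was the one tRNA gene to pass the filter on low values (log2 difference 1.24, SE 0.444, adjusted p = 0.122 from limma), and it did so on 0 to 4 reads a library. Its mean was 0.637 RPKM in the control pair and 2.84 RPKM in the cKO libraries, so it passed only through the cKO group. mt-Tl1 (a leucine tRNA), mt-Tq (glutamine), mt-Ta (alanine) and mt-Tc (cysteine) had at most 2 reads in any library of that table. In control 3 the 7 tRNA reads were 4 of mt-Ts1 (a serine tRNA), 2 of mt-Te and 1 of mt-Tn (asparagine).

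**Figure D1:**
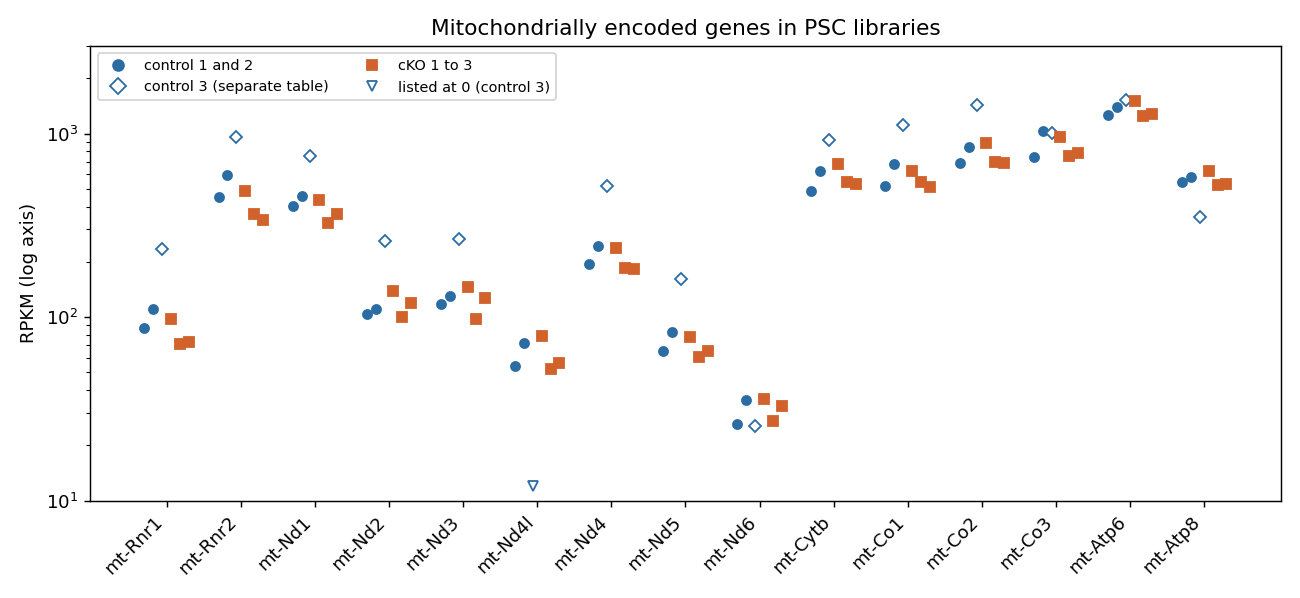
RPKM (log axis) of the 2 rRNA and 13 protein-coding mitochondrial genes in each PSC library, with filled circles for controls 1 and 2, an open diamond for control 3 and squares for cKO 1 to 3. The control and cKO values of the 5 libraries of one table overlap for all 15 genes, and control 3 lies above those 5 for 11 genes, below them for 3 and listed at 0 for mt-Nd4l, which is one of the 3.

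Among the protein-coding genes of PSCs, mt-Atp6, mt-Co3 and mt-Co2 had the highest RPKM and the complex I genes the lowest. mt-Atp6 (MT:7927-8607), the ATP synthase subunit a, had 1254 and 1387 RPKM in the control pair, against 1508, 1251 and 1272 RPKM in the cKO libraries. mt-Atp8 (MT:7766-7969), a small subunit of the same enzyme, had 543 and 576 RPKM in the control pair, against 629, 523 and 533 RPKM in the cKO libraries. For both genes cKO 1 was the highest and cKO 2 the lowest library, and the controls lay between them.

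The complex IV genes encode the catalytic core of cytochrome c oxidase. mt-Co1 (MT:5328-6872) had 518 and 684 RPKM in the control pair, against 628, 545 and 512 RPKM in the cKO libraries. mt-Co2 (MT:7013-7696) had 693 and 848 RPKM in the control pair, against 893, 702 and 693 RPKM in the cKO libraries. mt-Co3 (MT:8607-9390) had 747 and 1027 RPKM in the control pair, against 962, 756 and 779.8 RPKM in the cKO libraries. In all of them control 2 and cKO 1 were the 2 highest libraries. mt-Cytb (MT:14145-15288), the cytochrome b of complex III, had 488 and 627 RPKM in the control pair, against 678, 542 and 528 RPKM in the cKO libraries, with the same libraries on top.

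The complex I genes spanned a wide range of levels. mt-Nd1 (MT:2751-3707) was the highest of them, with 400.5 and 455 RPKM in the control pair, against 435, 323 and 365 RPKM in the cKO libraries. mt-Nd4 (MT:10167-11544) had 195 and 243 RPKM in the control pair, against 238, 184 and 183 RPKM in the cKO libraries. Each stood higher in control 2 than in any cKO library, while control 1 lay within the cKO range. mt-Nd3 (MT:9459-9806) had 118 and 131 RPKM in the control pair, against 146, 97.8 and 127 RPKM in the cKO libraries. mt-Nd2 (MT:3914-4951) had 104 and 111 RPKM in the control pair, against 139, 100.4 and 119 RPKM in the cKO libraries. In both, the cKO libraries spread wider than the controls and enclosed them. mt-Nd5 (MT:11742-13565) had 65.3 and 82.7 RPKM in the control pair, against 78.1, 60.6 and 65.4 RPKM in the cKO libraries. mt-Nd4l (MT:9877-10173) had 53.9 and 71.8 RPKM in the control pair, against 78.8, 51.9 and 56.2 RPKM in the cKO libraries. mt-Nd6 (MT:13552-14070), the one protein-coding gene on the minus strand, was the lowest, with 26.1 and 35.5 RPKM in the control pair, against 35.8, 27.2 and 32.7 RPKM in the cKO libraries. It overlaps the end of mt-Nd5 by 14 bases on the other strand, and no source says whether the counting used strand, so antisense reads over this gene cannot be told apart from its own.

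The same few PSC libraries were high or low across the genes. The highest value was in control 2 for 7 of the 15 protein and rRNA genes and in cKO 1 for the other 8. The lowest value was in cKO 2 for 8 genes, in control 1 for 4 and in cKO 3 for 3.

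None of the mitochondrially encoded genes passed the test in PSCs, where 10.1% of all 11045 tested genes did (1118 genes, adjusted p under 0.05 from limma on log2(RPKM + 1), a scale that understates the change of low genes). Of the 37 genes, 16 passed the filter of a mean RPKM of at least 1 and were tested, namely the protein-coding and rRNA genes and mt-Te. At an unadjusted p under 0.05 there was 1 of the 16, mt-Te, against 27.7% of all genes. The 13 protein-coding genes had a median log2 difference of -0.02, from -0.20 (SE 0.158, adjusted p = 0.454 from limma) for mt-Nd1 to 0.14 (SE 0.151, adjusted p = 0.584 from limma) for mt-Nd2. The median of all genes was 0.14. The 95% intervals of the 13 protein-coding and 2 rRNA genes all included 0 and reached from -0.85 to 0.49, so differences of that size remain possible with 2 against 3 libraries. The sign of some of these genes depends on the scaling. With median-ratio size factors, which moved the median of all genes to 0.00, 5 of the 16 genes turned sign, 1 was above 0 and their median was -0.19. It also depends on single libraries, since the median of the 16 genes was 0.10 without control 2, -0.23 without control 1, -0.17 without cKO 1 and 0.04 without cKO 2.

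In osteoclasts mt-Co1 dominated the protein-coding genes. It had 13272, 16789 and 12772 CPM in controls 1 to 3 and 13305, 14288 and 18452 CPM in cKO 1 to 3, which was 47.1% to 51.3% of all counts of the 13 genes. mt-Co2 had 2881, 3229 and 2471 CPM in controls and 2635, 3081 and 4316 CPM in cKO libraries. mt-Co3 had 2912, 3535 and 2846 CPM in controls and 2865, 3295 and 4464 CPM in cKO libraries. For each of them cKO 3 was the highest and control 2 the highest control, and cKO 1 lay inside the control range.

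mt-Atp6 had 1486, 1821 and 1393 CPM in osteoclast controls and 1320.4, 1653 and 2558 CPM in cKO libraries. mt-Atp8 had 237, 358 and 272 CPM in controls and 282, 291 and 448 CPM in cKO libraries. The cKO libraries of these ATP synthase genes reached past the controls through cKO 3. mt-Cytb had 1077, 1302 and 1018 CPM in controls and 1019.9, 1387 and 1824 CPM in cKO libraries. It gave the largest log2 difference of the 13 genes, 0.31 (SE 0.167, adjusted p = 0.9498 from edgeR), with cKO 1 between controls 1 and 3.

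None of the complex I genes separated the osteoclast groups. mt-Nd1 had 1697, 2197 and 1657 CPM in controls and 1677, 1705 and 2593 CPM in cKO libraries. mt-Nd5 had 1223, 1228 and 1051 CPM in controls and 1014, 1034 and 1585 CPM in cKO libraries. mt-Nd4 had 967, 1050.0 and 869 CPM in controls and 911, 1024 and 1514 CPM in cKO libraries. Again cKO 3 was above all 5 other libraries and the groups overlapped. mt-Nd2 had 462, 536 and 437 CPM in controls and 422, 366 and 647 CPM in cKO libraries. mt-Nd3 had 211, 297.7 and 238 CPM in controls and 253, 217 and 338 CPM in cKO libraries. In mt-Nd2 the cKO libraries lay on both sides of the controls, and in mt-Nd3 cKO 1 and 2 fell between controls 1 and 2. mt-Nd6 had 195, 226 and 192 CPM in controls and 185, 150.3 and 238 CPM in cKO libraries. mt-Nd4l had 145, 149 and 143 CPM in controls and 107, 166 and 161 CPM in cKO libraries. It was the only one of the 13 genes in which cKO 3 was not the highest library, being second to cKO 2.

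**Figure D2:**
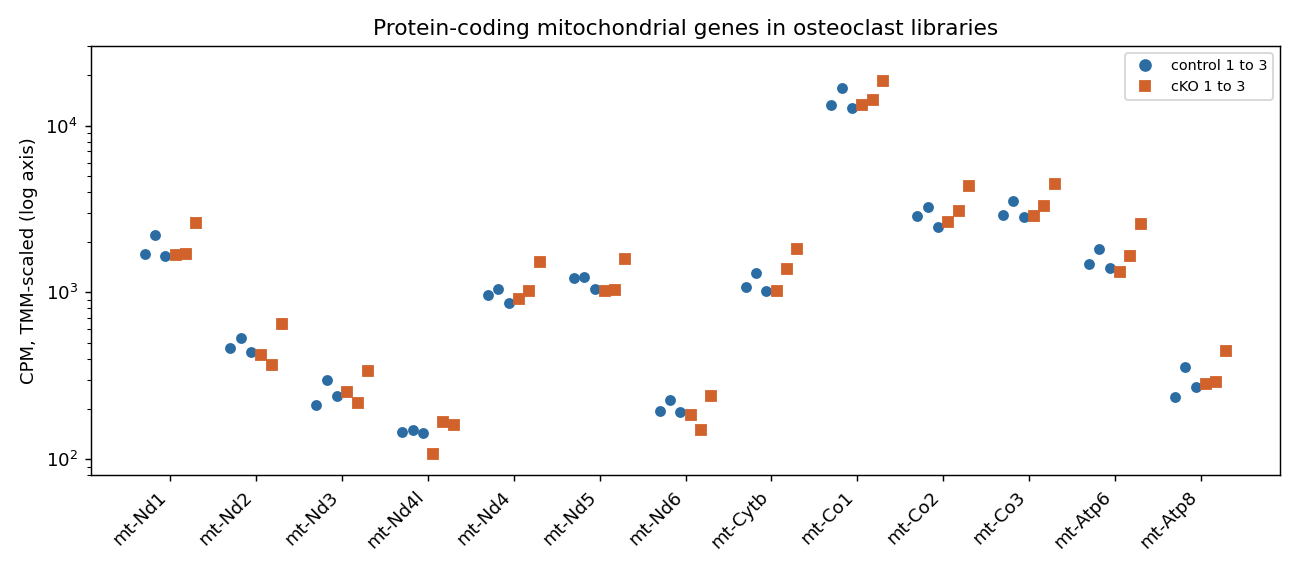
TMM-scaled CPM (log axis) of the 13 protein-coding mitochondrial genes in each osteoclast library, with circles for controls 1 to 3 and squares for cKO 1 to 3. The groups overlap for every gene, and cKO 3 (the rightmost square) is the highest library for 12 of the 13.

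None of the 13 genes passed the test in osteoclasts, where 0.0373% of all 10724 tested genes did (4 genes, edgeR's quasi-likelihood test, adjusted p under 0.05). None had an unadjusted p under 0.05, against 4.76% of all genes, and DESeq2 called none either. The log2 differences ran from -0.11 (SE 0.138, adjusted p = 0.959 from edgeR) for mt-Nd6 to 0.31 for mt-Cytb, with 10 above 0, 3 below 0 and a median of 0.10 against 0.00 for all genes. Their 95% intervals all included 0 and reached from -0.40 to 0.66. The direction rested on cKO 3. Without this library the median was -0.07 and 2 of the 13 genes were above 0. Without cKO 1 it was 0.21, without cKO 2 it was 0.22, and without control 2 it was 0.25.

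**Figure D3:**
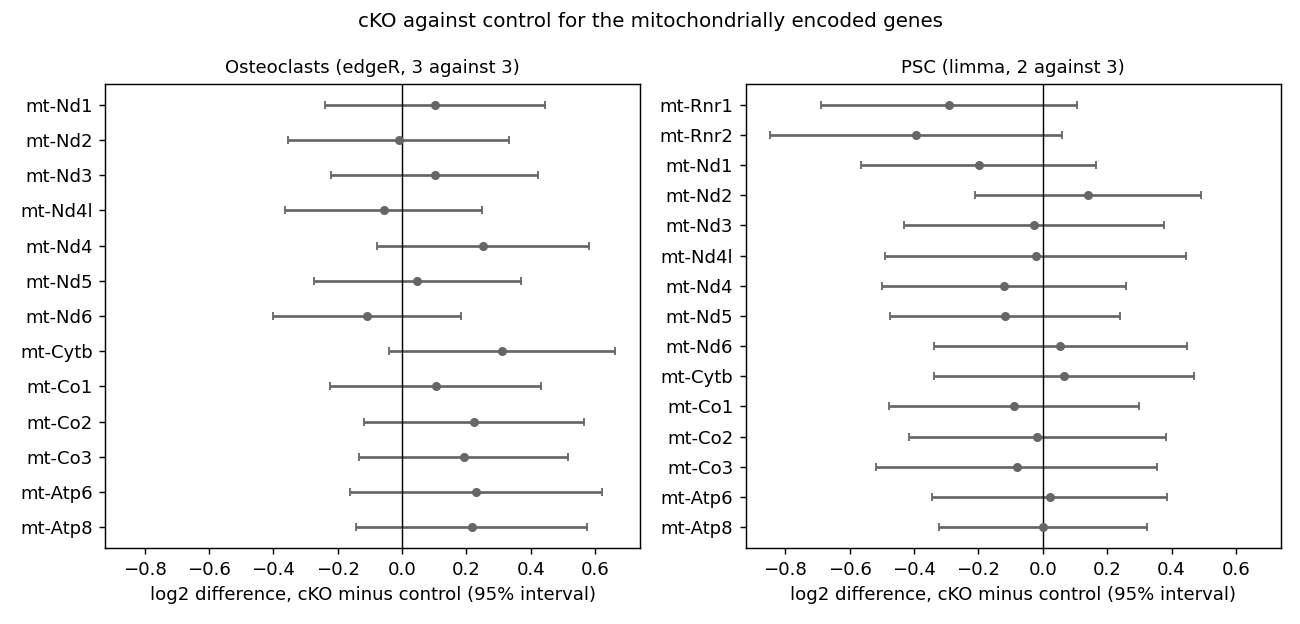
Log2 difference, cKO minus control, with its 95% interval for the 13 protein-coding genes in osteoclasts (edgeR, 3 against 3 libraries) and for the 2 rRNA and 13 protein-coding genes in PSCs (limma on log2(RPKM + 1), 2 against 3 libraries). Every interval shown includes 0, and the lowest bound is -0.85 for mt-Rnr2 in PSCs and the highest 0.66 for mt-Cytb in osteoclasts.

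The make-up of the protein-coding RNA set the cell types apart, in ranges that take in the libraries of both genotypes. To compare genes, osteoclast counts were divided by exon length, and each gene was taken as a percent of the summed level per length of the 13 genes of its library. mt-Co1 made up 30.8% to 34.3% of this level in the 6 osteoclast libraries and 9.73% to 10.9% in the 5 PSC libraries of one table. mt-Atp6 made up 7.71% to 9.69% in osteoclasts and 22.1% to 24.2% in PSCs. The ratio of mt-Co1 to mt-Atp6 was thus 3.18 to 4.44 in every osteoclast library and 0.403 to 0.493 in every PSC library of that table, with 0.729 in control 3. mt-Cytb made up 3.54% to 4.34% in osteoclasts and 9.37% to 10.5% in PSCs, and mt-Atp8 made up 4.49% to 5.66% and 9.18% to 10.4%. In PSC control 3, however, mt-Atp8 stood at 4.21%, below every osteoclast library. mt-Nd6, the minus-strand gene, stood at 1.04% to 1.501% in osteoclasts and 0.501% to 0.620% in PSCs. By contrast, the ranges of mt-Nd1, mt-Nd3 and mt-Co3 overlapped between the cell types, as with mt-Nd1 at 6.38% to 7.24% and 6.26% to 7.69%. These are side-by-side values of tables that were made separately, and differences in processing and in cell type cannot be told apart.

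By complex, the 3 complex IV genes made up 61.8% to 64.3% of the level per length in osteoclasts and 37.6% to 40.8% in the 5 PSC libraries. The 2 complex V genes made up 12.9% to 15.4% and 31.3% to 34.5%. The 7 complex I genes held nearly the same portion in both, 17.6% to 19.8% in osteoclasts and 16.4% to 18.5% in PSCs. Control 3 had 42.6% for complex IV, 22.6% for complex V and 23.7% for complex I. Once the reads of the nuclear copies described below were added, these were 47.3%, 23.5% and 20.3%.

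In osteoclasts the order of levels per length was mt-Co1, mt-Co2, mt-Co3, mt-Atp6, mt-Nd1, mt-Atp8, mt-Cytb, mt-Nd4, mt-Nd3, mt-Nd5, mt-Nd4l, mt-Nd2 and mt-Nd6. Of its 12 pairs of neighbours, 7 had ranges over the libraries that did not overlap. The ranges overlapped for mt-Co2 and mt-Co3, for mt-Nd4 and mt-Nd3, for mt-Nd3 and mt-Nd5, for mt-Nd4l and mt-Nd2 and for mt-Nd2 and mt-Nd6. In the 5 PSC libraries the order was mt-Atp6, mt-Co3, mt-Co2, mt-Co1, mt-Cytb, mt-Atp8, mt-Nd1, mt-Nd4, mt-Nd3, mt-Nd2, mt-Nd5, mt-Nd4l and mt-Nd6. Here the ranges overlapped for mt-Co1 and mt-Cytb, for mt-Cytb and mt-Atp8, for mt-Nd3 and mt-Nd2 and for mt-Nd5 and mt-Nd4l. Within a library the highest gene had 22.3 to 31.9 times the level of the lowest in osteoclasts and 39.0 to 48.1 times in the 5 PSC libraries.

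**Figure D4:**
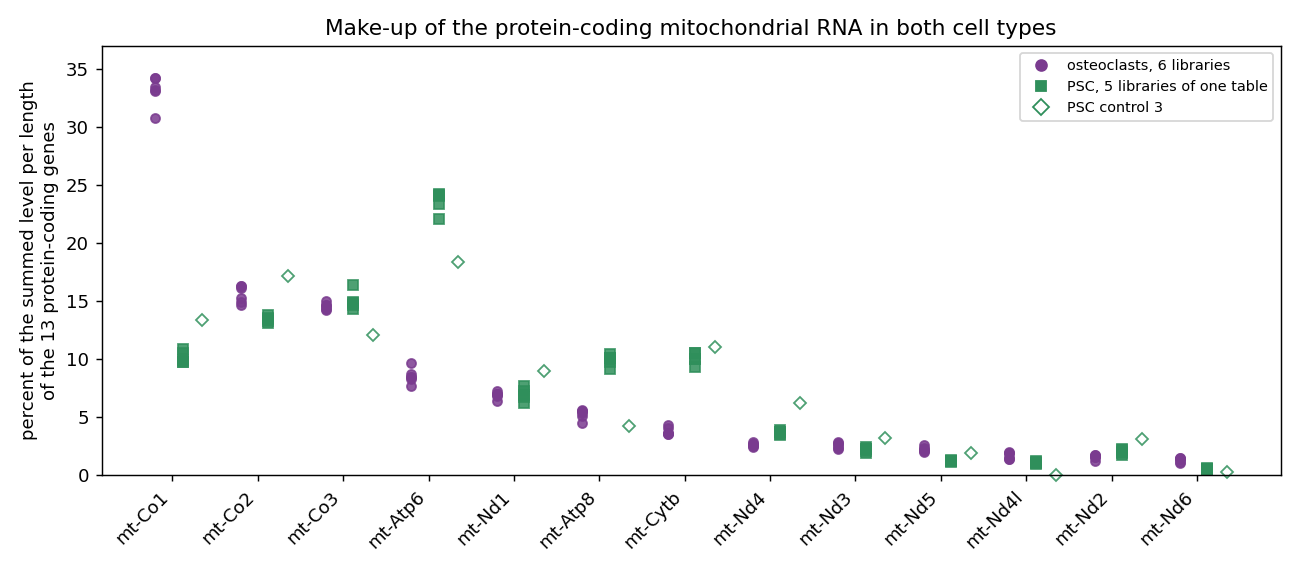
Each protein-coding gene as a percent of the summed level per length of the 13 genes in its library, with circles for the 6 osteoclast libraries, squares for the 5 PSC libraries of one table and an open diamond for PSC control 3. mt-Co1 lies at 30.8% to 34.3% in osteoclasts and 9.73% to 10.9% in the 5 PSC libraries, and mt-Atp6 at 7.71% to 9.69% and 22.1% to 24.2%.

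Several of these genes have near-identical copies in the nuclear genome, which bears on how reads are assigned. A stretch of 4663 bases on chromosome 1 (GRCm38, chr1:24611535-24616197, minus strand) holds 7 annotated pseudogenes that match mt-Co1, mt-Co2, mt-Atp6, mt-Co3, mt-Nd3, mt-Nd4l and mt-Nd4. In a BLAST of their transcripts, 5 of the 7 were identical to the mitochondrial gene over the whole aligned length, and the 7 alignments held 2 mismatches in 4140 bases. Gm28437 matched 783 of the 784 bases of mt-Co3, Gm28661 matched 681 of 684 of mt-Co2, and Gm10925 matched 678 of 681 of mt-Atp6. Gm28439 matched the first 876 of 1378 bases of mt-Nd4. Gm29216 matched the last 483 of 1545 bases of mt-Co1 but for A1066T, where positions count from the first base of the mitochondrial gene. Gm28438 matched 345 of 348 bases of mt-Nd3 but for T3C. These mismatches are the only bases in the aligned parts by which a read could be told apart. They are shown in capitals in the pairs here, which come from GENCODE transcripts on GRCm38, with mt-Nd3 at MT:9459-9491 and its copy at chr1:24613087-24613119, and mt-Co1 at MT:6363-6423 and its copy at chr1:24616155-24616197, where the first 9 bases of the copy lie outside the alignment.
mt-Nd3: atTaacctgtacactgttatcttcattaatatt
Gm28438: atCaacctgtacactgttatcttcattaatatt
mt-Co1: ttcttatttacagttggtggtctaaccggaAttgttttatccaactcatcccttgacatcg
Gm29216: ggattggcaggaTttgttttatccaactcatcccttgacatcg

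The copy Gm10222 is identical to mt-Nd4l over 294 of its 297 bases. The whole gene (MT:9877-10173, plus strand) is shown with the bases past the annotated end of the copy in capitals. No read from inside the lower-case part differs between the loci. The capitals mark an annotation end and not a difference in sequence. The last 7 bases of mt-Nd4l are the first of mt-Nd4, and Gm28439, which overlaps the end of Gm10222, matches mt-Nd4 from its first base.
mt-Nd4l: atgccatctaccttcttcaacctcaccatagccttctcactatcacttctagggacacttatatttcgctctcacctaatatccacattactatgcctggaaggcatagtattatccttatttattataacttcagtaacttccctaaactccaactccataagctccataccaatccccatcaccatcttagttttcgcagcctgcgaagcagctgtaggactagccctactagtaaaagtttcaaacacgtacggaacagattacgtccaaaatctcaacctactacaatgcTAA

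The tables treated these loci in different ways. In the 5 PSC libraries of one table the 7 copies had 3 to 13 reads in all, against 30482 to 52418 reads of the 7 mitochondrial genes. In the osteoclast table they were listed at 0. In PSC control 3 the copies had 12801 reads against 37127 of the mitochondrial genes, or 25.6% of the sum. For mt-Co3 the reads were divided almost evenly, 5483 to the gene and 5394 to Gm28437. mt-Atp6 had 7252 reads and Gm10925 had 2807, and mt-Co1 had 11998 and Gm29216 had 3996. The division was not even elsewhere, with 6802 reads of mt-Co2 against 275 of Gm28661, 643 of mt-Nd3 against 13 of Gm28438 and 4949 of mt-Nd4 against 0 of Gm28439. mt-Nd4l had 0 reads and Gm10222 had 316, although mt-Nd4l had 51.9 to 78.8 RPKM in every other PSC library.

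The control 3 table also gives reads that were uniquely placed. The copies had 0 unique reads. mt-Co2 had 42 unique reads of 6802, mt-Atp6 42 of 7252, mt-Co3 17 of 5483 and mt-Nd3 7 of 643. mt-Co1 and mt-Nd4, whose copies cover only part of the gene, had 8096 of 11998 and 3059 of 4949. The genes without an annotated copy were unique almost throughout, as with 5008 of 5008 reads of mt-Nd1 and 7357 of 7361 of mt-Cytb. With the reads of the copies added, control 3 had 153 RPKM for mt-Nd4l in place of 0, 1994 for mt-Co3 in place of 1005, 2123 for mt-Atp6 in place of 1530.4, and 1488 for mt-Co1 in place of 1116. Its share of mapped reads in mitochondrial genes then rose from 0.949% to 1.13%.

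**Figure D5:**
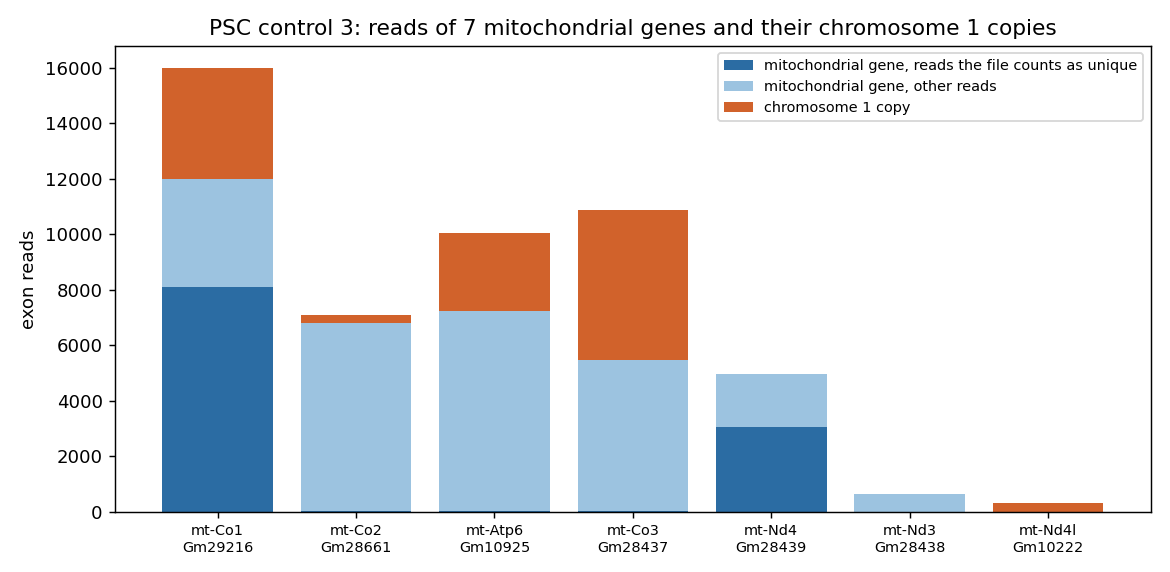
Exon reads in PSC control 3 for 7 mitochondrial genes and the chromosome 1 copy named under each, stacked as reads of the mitochondrial gene that the table counts as unique, its other reads and reads of the copy. The copy holds 5394 of the 10877 reads of the mt-Co3 pair and all 316 of the mt-Nd4l pair, and unique reads are seen at this scale for mt-Co1 and mt-Nd4.

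Against the other 5 PSC libraries, control 3 was above the whole range for 11 of the 15 rRNA and protein-coding genes and below it for 3. The ratio to the mean of the 5 was 2.67 for mt-Rnr1, 2.47 for mt-Nd4 and 1.90 for mt-Nd1. It was 0.626 for mt-Atp8 and 0.810 for mt-Nd6, and none of the 7 annotated copies covers most of either gene. The copies of mt-Atp6 (chr1:24613974-24614651) and mt-Co2 (chr1:24614885-24615565) are neighbours, and mt-Atp8 starts between those genes in the mitochondrial genome. The unannotated sequence between these copies was not searched for mt-Atp8. Of the 498 reads of mt-Atp8 in control 3, 497 were uniquely placed. mt-Atp8 had 351 RPKM in control 3, and its ratio to mt-Atp6 was 0.229 there, against 0.415 to 0.433 in the other PSC libraries and 0.532 to 0.714 in osteoclasts. mt-Co3 was within the range at 1005 RPKM before its copy was added. So the genes of control 3 did not shift by a common factor, and its deposited values of the 7 genes with copies are uncertain. Whether its values of mt-Atp8, and of complex V with it, are affected in the same way was not tested.

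Overlapping genes share reads as well. The last 43 bases of mt-Atp8 are also the first of mt-Atp6, and the last 7 of mt-Nd4l are the first of mt-Nd4. The shared bases are in capitals, with the last 100 bases of mt-Atp8 (MT:7870-7969) and the first 60 of mt-Nd4 (MT:10167-10226), both on the plus strand. Reads over them can be counted for one gene, both or none, and no source gives the rule.
mt-Atp8: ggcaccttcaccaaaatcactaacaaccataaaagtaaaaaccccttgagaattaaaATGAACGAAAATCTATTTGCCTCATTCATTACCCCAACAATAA
mt-Nd4: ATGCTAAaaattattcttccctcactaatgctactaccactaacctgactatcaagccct

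The nuclear genes that copy, transcribe and process the mitochondrial genome were compared as a list of 45. In PSCs 4 of the 40 that were tested passed, all with higher values in cKO libraries, where 8.46% of all tested genes passed in that direction and 1.67% in the other, so the share of the list was near the background. They were Polg, Mterf3, Fastk and Mterf1a, the last of which passed the filter on low values only through its cKO libraries. The list had a median log2 difference of 0.22 against 0.14 for all genes, with 32 above 0, and under median-ratio size factors 26 were above 0 and the median was 0.11 against 0.00. Every cKO library was above both controls for 17 of the 40, against 35.6% of all genes, and below both for 2, against 10.2%. Of the 40, 13 had an unadjusted p under 0.05 in limma, against 27.7% of all genes.

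Polg, the catalytic subunit of the mitochondrial DNA polymerase, had 5.20 and 5.18 RPKM in the control pair, against 9.92, 8.71 and 9.65 RPKM in the cKO libraries, a log2 difference of 0.75 (SE 0.119, adjusted p = 0.0106 from limma). Its level was close between the controls, and control 3 had 5.17 RPKM. Mterf3, known in mice as a repressor of mitochondrial transcription, had 4.06 and 4.75 RPKM in the control pair, against 8.15, 7.54 and 6.99 RPKM in the cKO libraries (log2 difference 0.66, SE 0.131, adjusted p = 0.0223 from limma), with 4.66 RPKM in control 3. Fastk, the founding member of a family of mitochondrial RNA-binding proteins, had 16.6 and 16.6 RPKM in the control pair, against 24.0, 22.2 and 26.0 RPKM in the cKO libraries (log2 difference 0.50, SE 0.113, adjusted p = 0.0343 from limma), with 11.9 RPKM in control 3. In all of them, control 3 too lay below every cKO library. Mterf1a, a transcription termination factor with a close paralogue, Mterf1b, with which it may share reads, had 0.396 and 0.721 RPKM in the control pair, against 1.56, 1.48 and 1.90 RPKM in the cKO libraries (log2 difference 0.77, SE 0.187, adjusted p = 0.0424 from limma), with 0.765 RPKM in control 3. The mean of Mterf1a was 0.559 RPKM in the control pair and 1.65 RPKM in the cKO libraries. It thus reached the filter mean of 1 only through the cKO group, so its call rests in part on that selection. The calls were not stable. With 1 of the 5 libraries left out, 0 or 1 gene of the list passed, and with all 6 libraries, with size factors or with no filter on low values 1 passed. Polg passed in these last settings and without any 1 cKO library, and had an adjusted p of 0.0603 without control 1 and 0.0508 without control 2 (limma).

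In osteoclasts none of 38 tested genes of the list passed in edgeR or DESeq2, against 0.0373% of all tested genes in edgeR. Of the 38, 3 had an unadjusted p under 0.05 in edgeR, against 4.76% of all genes. Top1mt, the mitochondrial DNA topoisomerase, had 14.02, 9.30 and 14.6 CPM in controls and 7.95, 6.72 and 5.19 CPM in cKO libraries (log2 difference -0.84, SE 0.323, adjusted p = 0.9498 from edgeR). Rexo2, an exonuclease that clears short RNA fragments in mitochondria, had 43.3, 47.3 and 46.7 CPM in controls and 34.8, 38.6 and 36.4 CPM in cKO libraries (log2 difference -0.34, SE 0.154, adjusted p = 0.9498 from edgeR). Mterf4, which takes part in assembly of the mitochondrial ribosome, had 13.2, 15.5 and 12.5 CPM in controls and 10.1, 6.72 and 9.35 CPM in cKO libraries (log2 difference -0.59, SE 0.284, adjusted p = 0.9498 from edgeR). In each of these genes every cKO library lay below every control, as in 7 of the 38 genes of the list and 5.53% of all tested genes, while 1 of the 38 and 5.03% of all genes had every cKO library above. The list had a median of -0.06 against 0.00 for all genes, with 18 above 0.

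Lrpprc, which with Slirp stabilises mitochondrial mRNAs, was named by the same rule in osteoclasts. It had 219, 194 and 195 CPM in controls and 186, 149 and 164 CPM in cKO libraries (log2 difference -0.27, SE 0.113, adjusted p = 0.9498 from edgeR). In PSCs it had 2.11 and 2.46 RPKM in the control pair, against 3.42, 3.61 and 3.88 RPKM in the cKO libraries (log2 difference 0.50, SE 0.140, adjusted p = 0.0640 from limma), with 2.74 RPKM in control 3. Neither difference passed the test. The cKO libraries lay on opposite sides of the controls in the 2 cell types for Lrpprc and Ssbp1, 2 of the 35 genes of the list tested in both, against 2.5% of all 8692 genes tested in both and 0 of the 13 mitochondrially encoded ones. The genes called in PSCs gave no call in osteoclasts, where the log2 differences were 0.04 for Polg, 0.14 for Mterf3, 0.18 for Fastk and -0.34 for Mterf1a, and whether the cell types differ was not tested.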

How the data were processed

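The osteoclast table deposited by the authors holds unscaled counts for each gene and columns of their own test, which were not used. The PSC tables deposited by the authors hold RPKM and, for control 3 alone, counts of exon and unique reads and TPM. Their ratio of intron reads, also deposited, was not used for results. Tools named in the submitters' notes are kallisto 0.46.0, Trim Galore 0.6.4 and FastQC 0.1.1.8, with GRCm38. The aligner behind RPKM, the strand setting and the treatment of reads with several placements were not given in the sources used here. Columns of unmapped samples numbered 0.

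Osteoclast counts were scaled by TMM, filtered with filterByExpr and tested with edgeR 4.0.16 (quasi-likelihood) in R 4.3.3, with DESeq2 1.42.0 as an alternative. PSC genes whose mean RPKM reached 1 were tested on log2(RPKM + 1) with limma 3.58.1 and a mean-variance trend. All tests are two-sided, with Benjamini-Hochberg adjustment over all genes tested and a threshold of 0.05, and both fits were tested on simulated data. PSC reads were recovered as RPKM times exon length times mapped reads and were whole for every mitochondrial gene. For the 5 libraries of one table the mapped reads were not given. They were estimated from the steps between RPKM values, with the exon lengths given for control 3. Over all genes with reads and a length, 85.8% to 85.9% came out whole within 0.02 reads in these 5 libraries. Copies were aligned with blastn 2.17.0 to GENCODE M21 transcripts, and 44 of 44 genes had the same start and end there as in the deposited table. Alternatives were other scalings, filters and pseudocounts, a replicate block, all 6 PSC libraries, copies added, and each library left out.

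The genes and lists were chosen with earlier results of these data known. All protein-coding and rRNA genes are named, the 5 highest tRNA genes and any that passed, the 4 genes of the nuclear list with the smallest p in each cell type and those that passed, and all copies.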

Additional observations from a re-analysis of the deposited data

Results flagged for a closer look

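Lrpprc, the nuclear gene for a protein that stabilises mitochondrial mRNAs, stood out because its cKO libraries lay on opposite sides of the controls in the 2 cell types. In PSCs all 3 cKO libraries were above controls 1 and 2 (log2 difference 0.50), and control 3, at 2.74 RPKM, was also below them. In osteoclasts all 3 cKO libraries were below all 3 controls (log2 difference -0.27). Ssbp1, the nuclear gene for the single-stranded DNA-binding protein of mitochondria, was named after its values were seen, for the same pattern. In PSCs it had 2.85 and 3.25 RPKM in the control pair, against 4.50, 3.83 and 4.21 RPKM in the cKO libraries (log2 difference 0.35, SE 0.137, adjusted p = 0.143 from limma), with 3.22 RPKM in control 3. In osteoclasts it had 30.4, 33.7 and 33.4 CPM in controls and 27.4, 22.7 and 30.1 CPM in cKO libraries (log2 difference -0.28, SE 0.179, adjusted p = 0.9498 from edgeR). None of these differences passed the test in its cell type, and the difference between the cell types was not tested for either gene. Of all 8692 genes tested in both cell types, 169 had the cKO libraries above the controls in PSCs and below them in osteoclasts and 48 the reverse, so the pattern is not particular to these 2 genes.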

How the results depend on the processing

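No mitochondrially encoded gene passed the threshold under any of 12 alternatives in either cell type, at a lowest adjusted p of 0.252 to 0.99996 in osteoclasts and 0.0944 to 0.422 in PSCs. Replicate numbers did not pair the libraries (correlations of their deviations from -0.08 to 0.07). With the replicate block 0 of the 37 genes passed in either cell type, and 0 of the nuclear list passed in PSCs in place of 4. The block also turned the uncalled PSC log2 differences of mt-Co2 to 0.046 and of mt-Nd4l to 0.040. For that list in PSCs the count was 1 with no filter, 1 with size factors, 1 with all 6 libraries and 1 with copies added, 0 to 1 with 1 library left out, and 4 with a pseudocount of 0.1 or with the mitochondrial genes taken out of the totals. In osteoclasts the list gave 0 calls throughout. With control 3 the difference in the PSC mitochondrial share moved to -0.159 percentage points, or -0.221 with copies added, and that in the rRNA percent of mitochondrial reads from -2.91 to -3.69 (-2.70 with copies, -3.32 to -2.50 with 1 library left out). The PSC share ran from -0.0977 to 0.0278 and the osteoclast share from -0.136 to 0.464 percentage points with 1 library left out.

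Signs of uncalled log2 differences turned in PSCs as follows. Size factors gave -0.025 for mt-Nd2, -0.17 for mt-Atp8, -0.15 for mt-Atp6, -0.11 for mt-Nd6, -0.10 for mt-Cytb and -0.051 for Rexo2. All 6 libraries gave -0.28 for mt-Nd2, -0.050 for mt-Atp6, -0.18 for mt-Cytb, -0.16 for Rexo2 and 1.97 for mt-Nd4l, which is at 0 in control 3. With copies added mt-Nd2 was at -0.28, mt-Atp6 at -0.21, mt-Cytb at -0.18 and Rexo2 at -0.16. With 1 PSC library left out, mt-Co1 ran from -0.29 to 0.11, mt-Co2 from -0.16 to 0.13, mt-Atp8 from -0.083 to 0.050, mt-Atp6 from -0.064 to 0.094, mt-Co3 from -0.31 to 0.15, mt-Nd3 from -0.16 to 0.13, mt-Nd4l from -0.23 to 0.18, mt-Nd4 from -0.28 to 0.034, mt-Nd5 from -0.29 to 0.051, mt-Nd6 from -0.16 to 0.27 and mt-Cytb from -0.12 to 0.25. With 1 osteoclast library left out, mt-Nd1 ran from -0.13 to 0.24, mt-Nd2 from -0.27 to 0.14, mt-Co1 from -0.050 to 0.24, mt-Co2 from -0.0026 to 0.37, mt-Atp8 from -0.013 to 0.40, mt-Atp6 from -0.079 to 0.42, mt-Co3 from -0.0096 to 0.32, mt-Nd3 from -0.072 to 0.25, mt-Nd4l from -0.19 to 0.17, mt-Nd5 from -0.19 to 0.16, mt-Nd6 from -0.27 to 0.015 and Polg from -0.048 to 0.21. The alternatives with copies added, and those for the rRNA percent, were chosen after seeing the data.

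The tRNA genes had 2 to 8 reads a library in PSCs, too few to compare, and why they were so few was not tested. With 2 controls against 3 cKO libraries, intervals from -0.85 to 0.49 on the log2 scale remain for the protein-coding and rRNA genes of PSCs. What the cell types do not share in processing was not tested.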
